A study of Mus musculus with 10 samples.

Results

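Neurotrophins and their receptors were followed through the cochlear RNA of newborn mice as 8 genes listed by mouse symbol: the ligands Bdnf, Ntf3 and Ntf5, the Trk receptors Ntrk2 and Ntrk3, the pan-neurotrophin receptor Ngfr, and the sortilin family receptors Sort1 and Sorcs2. They were listed as a family rather than picked for a fold change, though with earlier results of these data known. They are 8 of the 54532 genes in the count table. None of them encodes a glial-derived factor, so the family of glial cell line-derived neurotrophic factor (GDNF) was taken from a separate list. All animals were female, on postnatal day 1, and homozygous for an Esrrg allele with loxP sites (Esrrgfl/fl); 5 of them made up the control group, and 5 had the same alleles together with Sox10-Cre (conditional knockout, cKO). Cre was driven by Sox10, a gene of the otic epithelium, glia and melanocytes, so cells outside these lineages should not be direct targets of the deletion. Which cells recombined, neurons included, was not measured here. The groups also differ in the presence of Cre itself. Each library held the soft tissue of the 2 cochleae of 1 animal, with neurons, glia, sensory epithelium and connective tissue together.

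Neurotrophins are secreted growth factors that keep sensory neurons alive and draw their fibres to a target. Neurotrophin 3, made from Ntf3, acts mainly through TrkC (Ntrk3), while brain-derived neurotrophic factor (Bdnf) and neurotrophin 4/5 (Ntf5) act through TrkB (Ntrk2). The receptor p75 (Ngfr) binds all of them, and with sortilin (Sort1) or SorCS2 (Sorcs2) it binds the uncleaved proneurotrophins. In the cochlea the ligands come from hair cells and supporting cells, and the Trk receptors sit on spiral ganglion neurons, the neurons that carry sound to the brain. Truncated forms of TrkB and TrkC without a kinase occur in glia and other cells, and a count per gene does not separate them from the full-length receptors.

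Esrrg, the targeted gene, did not fall in the libraries labelled cKO. It measured 56.1, 48.5, 60.9, 64.7 and 61.7 counts per 1000000 library counts (CPM) in controls 1 to 5, and 108.9, 96.0, 78.2, 70.7 and 95.01 CPM under the label cKO, libraries 1 to 5. The groups did not overlap, and Esrrg was higher by 0.62 on the log2 scale (SE 0.117; edgeR, adjusted p = 0.0259). Leaving out control 2, cKO 3 or cKO 4 kept that call, and leaving out any of the other 7 libraries ended it, with an adjusted p of up to 0.0992. Counts summed over a whole gene cannot tell a transcript that lacks an exon from an intact one. Because these counts cannot check the deletion, that group is named by its label throughout, and every direction given here rests on that label. Library totals lay between 33.5 and 41.8 M counts, and 24160 to 26064 genes had at least 1 count. Markers of the cochlea were present: the 13 genes listed for supporting cells summed to 2763 to 3632 CPM, the 13 for hair cells to 362.7 to 458.8 CPM and the 20 for spiral ganglion neurons to 1154 to 2144 CPM.

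None of the 8 neurotrophin and receptor genes was called different between the controls and the libraries labelled cKO. All 8 passed the filter on low counts, 0 of 8 reached an edgeR adjusted p under 0.05, where 0.619% of all 17937 tested genes did (0.546% lower and 0.0725% higher under the cKO label). At an unadjusted p under 0.05 there were also 0 of 8, where 9.65% of all tested genes passed. In 0 of the 8 did the CPM of the groups fail to overlap, where 2.84% of all tested genes showed no overlap (1.64% lower and 1.2% higher). The log2 fold changes ran from -0.29 (Ntf5) to 0.25 (Sorcs2), with 5 genes on the lower and 3 on the higher side, adjusted p between 0.569 and 0.968, and a median of -0.07 beside -0.01 for all tested genes. DESeq2 and limma-voom, run as alternatives, also called 0 of the 8.

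**Figure D1:**
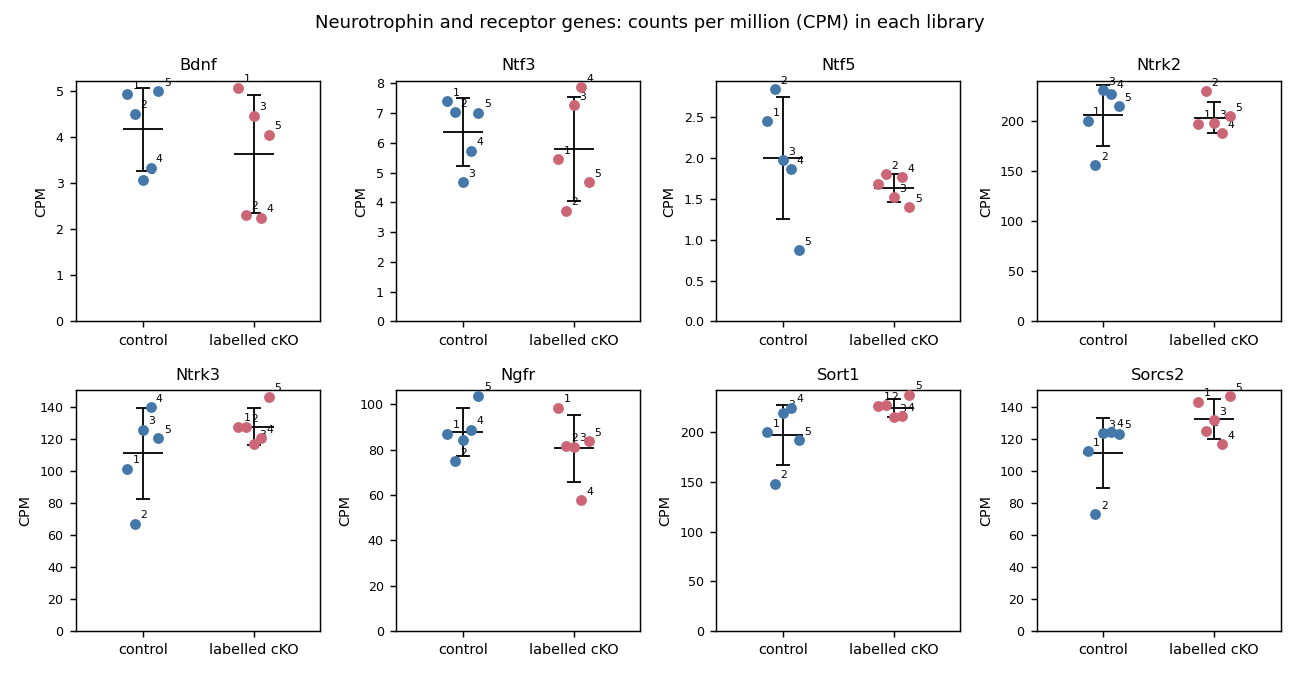
CPM of the 8 genes in each library (numbered points), with the group mean and SD (black lines, n = 5 each). The groups overlapped for every gene, and control 2 was the lowest control library for Ntrk2, Ntrk3, Ngfr, Sort1 and Sorcs2.

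Among the ligands, Ntf3 had more counts than Bdnf and Ntf5. Ntf3 (ENSMUSG00000049107; GRCm38 chromosome 6, 126101412 to 126166910, minus strand) measured 7.39, 7.03, 4.67, 5.74 and 7.01 CPM in controls 1 to 5, and 5.46, 3.72, 7.26, 7.86 and 4.67 CPM under the cKO label, again in library order. The highest and the lowest library both carried the cKO label, so the control values lay inside the range of the other group. The group means were 6.37 ± 1.14 and 5.79 ± 1.74 CPM (SD, n = 5 each), which is -0.14 on the log2 scale (SE 0.201; edgeR, adjusted p = 0.847). Under limma-voom with quality weights the sign turned, to 0.11, and leaving out 1 library gave -0.01 (without cKO 2) to -0.27 (without cKO 4).

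Bdnf (ENSMUSG00000048482; chromosome 2, 109674700 to 109727007, plus strand) measured 4.92, 4.50, 3.07, 3.33 and 4.99 CPM in the controls, and 5.07, 2.32, 4.45, 2.25 and 4.04 CPM under the cKO label. Both extremes again carried the cKO label, with cKO 2 and cKO 4 below every control and cKO 1 above. Its log2 difference was -0.20 (SE 0.239; edgeR, adjusted p = 0.804), and the 95% interval of the fold ran from 0.609 to 1.24. In cKO 4 the 20 neuron markers summed to 1154 CPM and the 14 markers of Schwann cells and satellite glia to 1033 CPM, the lowest of the 10 libraries for both lists. The log2 difference of Bdnf was -0.07 without cKO 4, -0.08 without cKO 2 and -0.35 without cKO 1. In cKO 2 the neuron and glial sums were 1571 and 1276 CPM, also below every control. Hair cell markers summed to 370.8 CPM in cKO 2 and 412.6 CPM in cKO 4. Their sum was 362.7 CPM in control 5, where Bdnf was 4.99 CPM. The part of cell content in the Bdnf difference was not tested. In whole tissue, fewer cells of a type and less RNA per cell cannot be told apart, here or for any other gene.

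Ntf5 (ENSMUSG00000074121; chromosome 7, 45413695 to 45417179, plus strand) was the scarcest ligand by count, with 34 to 105 counts per library. It measured 2.45, 2.84, 1.97, 1.86 and 0.87 CPM in controls, and 1.68, 1.80, 1.52, 1.76 and 1.39 CPM in the other group. Control libraries spanned more than the libraries labelled cKO, which all lay between the lowest and the second lowest control. On the log2 scale it differed by -0.29 (SE 0.257; edgeR, adjusted p = 0.732), with a 95% interval of the fold from 0.557 to 1.2 at this depth. It was -0.48 without control 5 and -0.15 without control 2.

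Ntrk2 (ENSMUSG00000055254; chromosome 13, 58806569 to 59133970, plus strand), the receptor of Bdnf and Ntf5, was the gene whose groups lay closest together. It stood at 200.5, 156.2, 230.9, 227.5 and 215.0 CPM in the controls, and 197.8, 229.9, 198.0, 188.1 and 205.4 CPM under the cKO label. All libraries labelled cKO lay inside the control range. The log2 difference was -0.02 (SE 0.103; edgeR, adjusted p = 0.968), with a 95% interval of the fold from 0.849 to 1.15. Its sign turned when control 3, control 4, control 5 or cKO 4 was left out, with values of at most 0.024.

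Ntrk3 (ENSMUSG00000059146; chromosome 7, 78175959 to 78738012, minus strand), the receptor of Ntf3, measured 101.6, 67.1, 126.1, 140.3 and 120.8 CPM in the controls, and 127.9, 127.7, 117.2, 120.6 and 146.7 CPM under the cKO label. Control 2 and control 1 were below every library labelled cKO, and the other controls were among them. Its mean was 0.20 higher under the cKO label on the log2 scale (SE 0.153; edgeR, adjusted p = 0.680), and 0.06 higher without control 2.

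Ngfr (ENSMUSG00000000120; chromosome 11, 95568818 to 95587735, minus strand), which marks Schwann cells and glial precursors as well as some neurons, measured 87.2, 74.98, 84.5, 88.8 and 103.9 CPM in the controls, and 98.6, 81.5, 81.35, 57.8 and 83.7 CPM under the cKO label. The highest value was in control 5 and the lowest in cKO 4, the library with the lowest glial and neuronal marker sums. Among the controls the order was the reverse. Control 5 had the lowest control sums (glial 1453, neuronal 1871 CPM), and control 2, with the lowest control Ngfr, had the highest (1693 and 2144 CPM). A link with cell content was not tested. The log2 difference was -0.13 (SE 0.124; edgeR, adjusted p = 0.763), -0.03 without cKO 4 and -0.21 without cKO 1.

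The sortilin family receptors had the smallest p-values among the 8 genes. Sort1 (ENSMUSG00000068747; chromosome 3, 108284082 to 108361511, plus strand), a sorting receptor that also carries proneurotrophins, measured 200, 148.3, 219.2, 224.7 and 192.0 CPM in the controls, and 226.8, 227.2, 215.2, 216.1 and 237.7 CPM under the cKO label. Sorcs2 (ENSMUSG00000029093; chromosome 5, 36017180 to 36398139, minus strand), the partner of p75 in the response to proneurotrophins, measured 112.3, 72.8, 123.6, 124.1 and 123.4 CPM in the controls, and 143.3, 124.8, 131.7, 116.7 and 146.7 CPM under the cKO label. For Sorcs2, 4 of the 5 libraries labelled cKO were above every control, and for Sort1 3 of 5 were. The log2 differences were 0.19 for Sort1 (SE 0.101; edgeR, adjusted p = 0.579) and 0.25 for Sorcs2 (SE 0.130; edgeR, adjusted p = 0.569). Without control 2 they were 0.09 and 0.12.

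**Figure D2:**
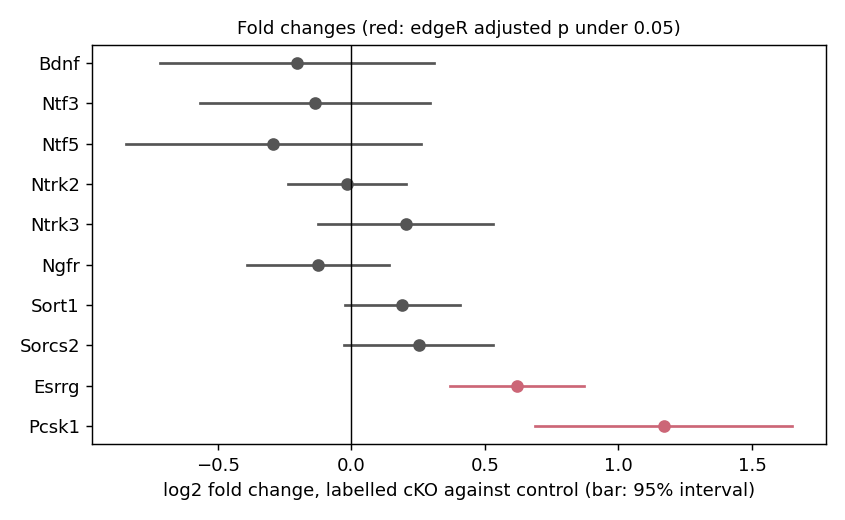
Log2 fold change of the libraries labelled cKO against controls, with its unadjusted 95% interval, for the 8 genes, the targeted gene Esrrg and Pcsk1. The intervals of all 8 neurotrophin and receptor genes include 0, and those of Esrrg and Pcsk1 do not.

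Control 2 was the lowest control for the 5 receptor genes, and its values also varied with gene length. Relative to the mean of the other 4 controls, control 2 stood at a log2 difference of -0.86 for Ntrk3 (30170 nt of merged exon), -0.73 for Sorcs2 (8802 nt), -0.49 for Sort1 (7569 nt), -0.48 for Ntrk2 (19292 nt) and -0.28 for Ngfr (3446 nt). It was higher by 0.17 for Bdnf (6217 nt), 0.20 for Ntf3 (1714 nt) and 0.74 for Ntf5 (2653 nt). Over 17929 tested genes, the deviation of control 2 from its group mean had a correlation of -0.349 with log2 exon length, and the other 9 libraries had correlations of -0.164 to 0.168; genes are not independent replicates. With an offset that removes this trend in each library, the log2 fold changes were 0.12 for Ntrk3, 0.22 for Sorcs2 and 0.16 for Sort1, and 0 of 8 genes were called. What set control 2 apart was not tested.

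**Figure D3:**
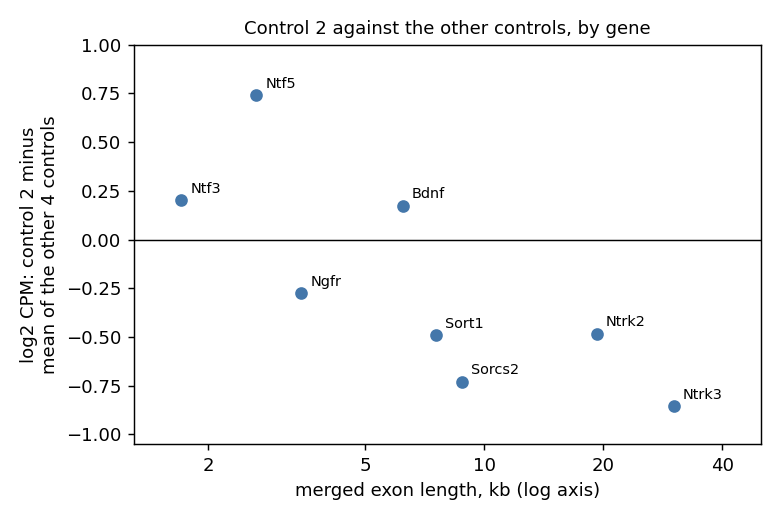
Log2 CPM of control 2 minus the mean of the other 4 controls for each gene (vertical axis), against merged exon length in kb (log axis). The 3 ligands lie above 0 and the 5 receptors below, with Ntrk3, the longest, at -0.86.

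Levels can be compared between genes only per length, which the deposited FPKM values (fragments per kilobase of merged exon, scaled per library) allow. Counts per kilobase of merged exon and per 1000000 library counts were 0.972 to 1.04 times the FPKM, depending on the library. In controls, Sort1 stood at 25.8 ± 4.12 FPKM and Ngfr at 25.3 ± 3.04, Sorcs2 at 12.5 ± 2.54 and Ntrk2 at 10.6 ± 1.61, Ntf3 at 3.68 ± 0.649 and Ntrk3 at 3.66 ± 0.946, and Ntf5 at 0.746 ± 0.275 and Bdnf at 0.663 ± 0.142 (SD, n = 5 each). Neighbours within each of these 4 pairs overlapped between libraries, and the pairs themselves did not. The libraries labelled cKO gave 29.5 ± 1.10 FPKM for Sort1, 23.2 ± 4.21 for Ngfr, 15 ± 1.36 for Sorcs2, 10.5 ± 0.824 for Ntrk2, 4.22 ± 0.353 for Ntrk3, 3.36 ± 1.02 for Ntf3, 0.611 ± 0.067 for Ntf5 and 0.580 ± 0.204 for Bdnf. In that group Sorcs2 and Ntrk2 no longer overlapped, and Ntrk3 and Ntf3 changed places within their overlap. The order depends on the length used. Per kilobase of the longest protein-coding transcript in place of merged exons, and per 1000000 library counts, the control means of Sort1, Ngfr, Ntrk2 and Sorcs2 were 29, 25.7, 23.7 and 19.6. Ngfr has the same length on both scales, so its shift from 25.3 reflects the library scaling and not length. On that scale Ntrk2 (17.4 to 26.4) and Sorcs2 (12.4 to 22.2) overlapped Ngfr (21.1 to 30.9), so the upper pairs were no longer separate. Control Ntrk3 stood at 5.68 and Ntf3 at 4.32, also with overlap, and the libraries labelled cKO had Bdnf at 0.847 and Ntf5 at 0.825. These 4 upper genes, Ntrk3 with Ntf3, and Ntf5 with Bdnf still did not overlap one another in controls.

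**Figure D4:**
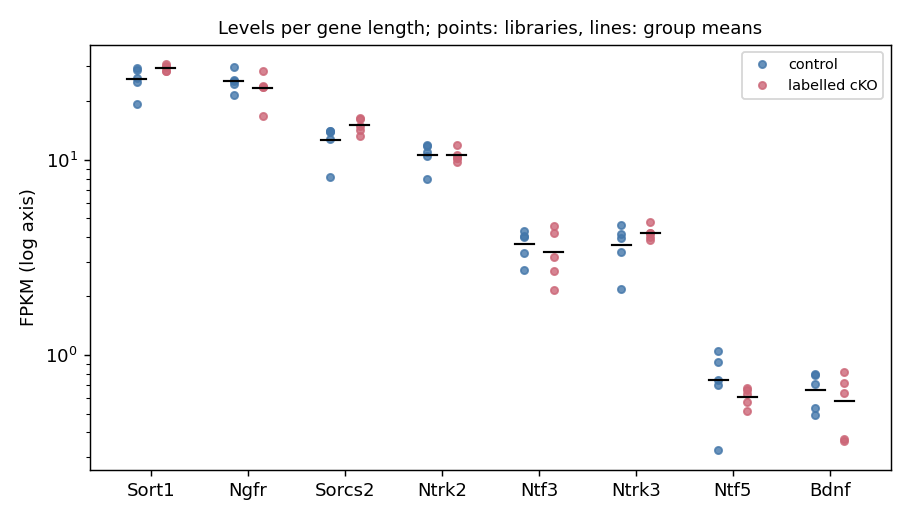
FPKM of the 8 genes in each library (log axis), in the order of the control means (short lines). The 3 ligands sit lower than Sort1, Ngfr, Sorcs2 and Ntrk2 in every library, and Bdnf and Ntf5 lie near the bottom at 0.324 to 1.05 FPKM.

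The balance between ligands, between receptors and between receptors and their cells was taken from 6 log2 ratios per library and compared with exact two-sided permutation tests. The log2 CPM ratio of Ntf3 to Bdnf, which is not scaled for length and is compared only between libraries, was 0.62 ± 0.106 in controls and 0.69 ± 0.665 under the cKO label (SD, n = 5 each; exact permutation p = 0.873). The wider spread came from cKO 4, at 1.78, and from cKO 1 and cKO 5, at 0.11 and 0.21. Without cKO 4 the difference between the groups was -0.20 instead of 0.08.

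Ntrk3 relative to Ntrk2 was -0.98, -1.22, -0.87, -0.70 and -0.83 in controls and -0.63, -0.85, -0.76, -0.64 and -0.49 in the libraries labelled cKO, a difference of 0.25 on the log2 scale. Ntrk3 relative to the mean of the 20 spiral ganglion neuron markers differed by 0.52. Both ratios had an exact permutation p of 0.0476, and 0.143 after Benjamini-Hochberg adjustment over the 6 ratios, so neither passed; the smallest exact p this design allows is 0.00794. Without control 2 the differences were 0.17 and 0.35, with an adjusted exact permutation p of 0.310 for both. The differences for Ngfr over Ntrk2, Ntrk2 over the neuron markers and Ngfr over the glial markers were -0.13, 0.28 and 0.16, with adjusted exact permutation p between 0.321 and 0.457. Of all tested genes 51.7% were on the lower side, 0.546% were called lower and 9.65% had an unadjusted p under 0.05. The neuron list itself had 17 of 20 genes on the lower side, a median of -0.24 on the log2 scale, 10 genes at an unadjusted p under 0.05 and 2 calls, Elavl4 and Slc17a7; the glial list had 11 of 14 lower, a median of -0.36 and 0 calls with 6 genes at an unadjusted p under 0.05 by edgeR. Summed CPM of the glial list was 1453 to 1693 in controls and 1033 to 1525 in the libraries labelled cKO.

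**Figure D5:**
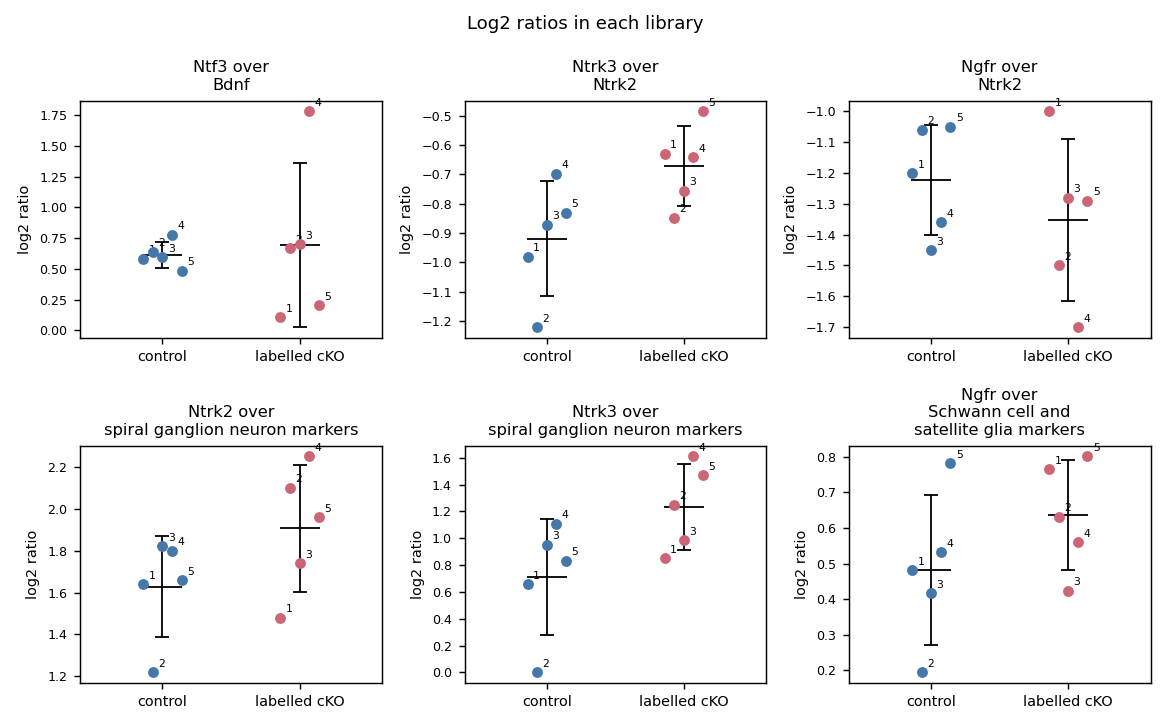
Log2 ratios in each library (numbered points) with the group mean and SD (n = 5 each); the vertical axes do not start at 0. Ntrk3 over Ntrk2 and Ntrk3 over neuron markers were higher on average in the libraries labelled cKO, with overlap, and control 2 is the lowest point in both.

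The wider pathway was described with 103 genes in 6 lists, of which 98 were tested. Of these, 0 were called lower and 1 higher, or 1.02% against the 0.619% of all tested genes, and the median log2 fold change was 0.04. Each list's median lay between -0.05 and 0.11. The CPM of the groups did not overlap for 6 of the 98, where 2.84% of all tested genes showed no overlap. Pcsk1, Plat, Shc1, Akt1 and Nr4a1 were among them.

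The 1 call was Pcsk1 (ENSMUSG00000021587; chromosome 13, 75089826 to 75134861), a prohormone convertase that cleaves precursors in secretory granules. The controls held 16 to 33 counts of it, and the libraries labelled cKO 43 to 76. In CPM these were 0.746, 0.618, 0.464, 0.915 and 0.742 in the controls, and 1.68, 1.23, 1.89, 1.48 and 1.58 in the other group, so the groups did not overlap. The mean went from 0.697 ± 0.168 to 1.57 ± 0.244 CPM (SD, n = 5 each), 1.17 higher on the log2 scale (SE 0.224; edgeR, adjusted p = 0.0284). Leaving out control 2, control 4 or cKO 2 kept that call, and leaving out any of the other 7 libraries ended it, with an adjusted p of up to 0.0923, while the difference stayed between 1.05 and 1.28. The call was also missed by limma on log2(FPKM + 1) and log2(FPKM + 0.1), at adjusted p of 0.0536 and 0.0501. The low level, 0.201 FPKM over all libraries, limits what can be said of this gene.

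The other processing enzymes did not pass the test. Furin, which cleaves proneurotrophins in the secretory pathway, differed by 0.20 on the log2 scale (SE 0.0936; edgeR, adjusted p = 0.518), and Pcsk6, at 31.9 FPKM the most abundant of the list, by 0.04. Plat, the tissue plasminogen activator, which starts extracellular cleavage of proBDNF, went from 145 ± 5.04 to 163 ± 8.59 CPM without overlap, a log2 difference of 0.17 (SE 0.0655; edgeR, adjusted p = 0.410). Of the 11 genes listed, Plg, Mmp3 and Mmp7 were too low to test.

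Promoter sequence is shown for Pcsk1, as the called gene, and for 1 of the start sites of Bdnf, since both hold a cAMP response element, the element read by CREB in activity-dependent transcription. The RefSeq table for GRCm38.p6 holds windows of 250 bases before and 50 after a start for 4 of the 8 genes, 11 windows in all (7 for Bdnf, 2 for Ntf3, 1 each for Ntrk2 and Ngfr). The element was searched on both strands as TGACGTNA, which takes in the full palindrome TGACGTCA and occurs in 2.93% of 32851 windows; the palindrome alone occurs in 1.79%. It was found in 1 of the 11 windows, that of Bdnf, and in the window of Pcsk1. The estrogen-related receptor element, searched as TNAAGGTCA on both strands, is in 1.28% of all windows and in 0 of the 11, which says only that these letters are absent from these windows. The match is in capitals, the sequences run 5′ to 3′ on the plus strand, and bases of annotated exons are left out. The Bdnf stretch is chr2:109692186-109692435 and the Pcsk1 stretch chr13:75089607-75089825. A match is a description of sequence, and no binding was measured.
Bdnf: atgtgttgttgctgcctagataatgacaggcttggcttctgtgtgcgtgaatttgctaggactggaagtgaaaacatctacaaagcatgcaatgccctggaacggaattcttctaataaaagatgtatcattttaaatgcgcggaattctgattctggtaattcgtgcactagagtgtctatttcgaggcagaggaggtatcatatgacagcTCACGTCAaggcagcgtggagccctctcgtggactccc
Pcsk1: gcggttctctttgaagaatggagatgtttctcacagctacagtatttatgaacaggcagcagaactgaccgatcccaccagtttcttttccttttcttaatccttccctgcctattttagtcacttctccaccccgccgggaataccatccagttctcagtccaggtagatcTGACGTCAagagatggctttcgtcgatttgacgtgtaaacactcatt

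Genes that respond to neurotrophins and activity, which CREB and ERK signalling switch on, gave 0 calls among 11 tested. Their median log2 difference was 0.01, and 2 had an unadjusted p under 0.05 by edgeR, where 9.65% of all tested genes did. Nr4a1, an immediate early nuclear receptor, measured 28.3 ± 1.6 CPM in the controls, and 22 ± 2.69 CPM under the cKO label without overlap, a log2 difference of -0.36 (SE 0.0956; edgeR, adjusted p = 0.154). Egr2, an immediate early gene that is also the transcription factor of myelinating Schwann cells, measured 13.7 ± 0.967 and 9.25 ± 3 CPM, a log2 difference of -0.57 (SE 0.182; edgeR, adjusted p = 0.292). The lowest Egr2 value, 6.05 CPM, was in cKO 4, the library with the lowest glial marker sum. Dusp6, a phosphatase induced by ERK signalling and the most abundant gene of this list at 23.4 FPKM, differed by 0.01 (SE 0.0778).

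Downstream of the Trk receptors, edgeR called 0 of 41 adaptors and kinases. It gave 3 an unadjusted p under 0.05, where 9.65% of all tested genes had one. Pik3r1, a regulatory subunit of phosphoinositide 3-kinase, differed by 0.42 on the log2 scale (SE 0.136; edgeR, adjusted p = 0.297), and the adaptor Shc1 by 0.17 (SE 0.0696; adjusted p = 0.447). The most abundant kinases, Akt1 at 91.6 FPKM and Mapk3 at 54.6 FPKM, stood at log2 differences of 0.09 and -0.12. Among 20 partners of p75, the proteases that cut it and its co-receptors, none passed the edgeR test (0 called, and 0 at an unadjusted p under 0.05). Maged1, an adaptor of p75, was the most abundant of all at 205 FPKM at a log2 difference of 0.0031 (SE 0.0763), and Arhgdia, an inhibitor of small GTPases, stood at -0.06. The gamma-secretase subunit Ncstn stood at 0.14.

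The GDNF and CNTF (ciliary neurotrophic factor) families also gave 0 calls among 13 tested genes, with 0 at an unadjusted p under 0.05. Cntfr and Il6st, receptor subunits for CNTF, were the most abundant, at 39.6 and 32.6 FPKM, at log2 differences of 0.10 and 0.20. Gfra1, the GDNF co-receptor, stood at 0.17 (SE 0.0972). In the sortilin family outside the 8 genes, the log2 difference was 0.29 for Sorl1 (SE 0.145) and -0.05 for Sorcs1 (SE 0.129).

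Control 5 stood apart for Gfra3 and Ret of the GDNF receptor system. It did not for Gfra1, at 76.47 CPM within a control range of 59.57 to 85.05 CPM. Gfra3, the artemin co-receptor, was 2.61 CPM in control 5 and 0.400 to 0.870 in the other 9 libraries, and Ret was 14.3 CPM there and 4.07 to 7.02 in the others. Prdm12, a transcription factor of pain-sensing neurons chosen after its values were seen, was 4.27 CPM in control 5 and 0.145 to 0.683 elsewhere. Control 5 also had the highest Ngfr and the lowest Ntf5 of the 10 libraries; whether these are linked was not tested. Without control 5, Ngfr differed by -0.06.

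The genes whose log2 CPM ran most closely with each member over the 10 libraries were taken as a description. For Sorcs2 they were C1qtnf1 and Egfr (Pearson r of 0.989 and 0.987), for Sort1 Plce1 and Kansl1 (0.980 and 0.977), for Ntrk3 Dennd1a and Lpp (0.979 and 0.978) and for Ntrk2 Map4k4 and Fem1c (0.967 and 0.953). These rest partly on control 2, since without it the 8 values were 0.880 to 0.957. For Ngfr they were Grik2 and Abca8a (0.959 and 0.958), and for Bdnf Ufsp1 and Nrn1 (0.946 and 0.930), where leaving out control 2 moved r by less than 0.01. For Ntf3 they were Cenpj and A930024E05Rik (0.926 and 0.923), and for Ntf5 Armc4 and Fam216a (0.959 and 0.930). With 10 libraries and 17937 genes such values are reached easily: 1 gene in 1000 had an r above 0.857 for Ntf5 and above 0.964 for Ntrk3.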

How the data were processed

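Polyadenylated RNA was read as paired ends of 150 bp, per the labels' protocols. The authors deposited whole-number counts per Ensembl gene and FPKM values. The submitters' processing notes name STAR 2.5, HTSeq 0.61, DESeq2 and the build mm10 without roles; annotation and strand use are not given in the sources used here. The deposited FPKM were compared with deposited counts divided by merged exon length in GENCODE release M21 (GRCm38), after 1 median scaling factor per library (0.972 to 1.04). As a median over libraries, they matched within 0.1% for 95.3% of 13923 genes. Symbols (54495 of 54532 IDs) and positions therefore came from that release. Exons of Bdnf, Sort1, Sorl1, Sorcs1, Furin, Gfra1 and Ncstn overlap a gene on the opposite strand, and those of Pcsk6 one on the same strand; the antisense genes at Bdnf and Sort1 had at most 6 counts per library.

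Counts were filtered with filterByExpr (minimum 10), scaled by TMM and tested with edgeR 4.0.16 (quasi-likelihood F-test, robust, genotype only; R 4.3.3), with Benjamini-Hochberg adjustment over 17937 genes and a threshold of 0.05; CPM were computed from the same factors. SE came from the F statistic, intervals from its t distribution. Log2 ratios used log2 CPM (prior count 2). Alternatives were other scaling factors and filters, DESeq2 1.42.0, limma 3.58.1 (voom, and log2 FPKM with pseudocounts of 1 and 0.1), the replicate block and leaving out each library; an exon length offset and length per longest coding transcript were added after seeing the data. Named genes were the 8 members and Esrrg, and of each pathway list the called genes, the 2 with the smallest p and the 2 with the highest FPKM; the 2 genes with the highest r were named for each member. Some genes of the lists are counted but not reported here by name. Furin, Ret and Prdm12 were added after their values were seen. Members, lists and alternatives were chosen with earlier results of these data known. Replicates of a group differed beyond sampling noise, and each is a separate animal. Sequences came from RefSeq.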

Additional observations from a re-analysis of the deposited data

Results flagged for a closer look

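A search for a library far from the other 4 of its group (Dixon's test) covered 37 measures, each in both groups. There were 6 such cases in 74 groups, where chance gives about 1 in 20, or 3.7. Furin, Ret and Prdm12 were chosen after their values were seen and are among the 6, so that count cannot be set against 3.7. Sorcs2 stood at 72.8 CPM in control 2 and at 112.3 to 124.1 CPM in the other controls. Il6st, the shared receptor subunit of the CNTF family, stood at 221 CPM in control 2 and at 344.9 to 385.8 CPM in the other controls. Gfra3 stood at 2.61 CPM in control 5 and at 0.513 to 0.787 CPM in the other controls. Furin stood at 154 CPM in control 2 and at 200.6 to 209.7 CPM in the others. Ret stood at 14.3 CPM in control 5 and at 4.34 to 5.46 CPM in the others. Prdm12 stood at 4.27 CPM in control 5 and at 0.145 to 0.478 CPM in the others. The Sorcs2, Il6st and Furin cases share control 2, and the Gfra3, Ret and Prdm12 cases share control 5.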

How the results depend on the processing

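The number of called members was 0 under all 22 alternatives. Over all tested genes, 111 were called; DESeq2 called 307 (253 lower, 54 higher), limma-voom with quality weights 436 (362 lower, 74 higher), and the exon length offset, an alternative chosen after seeing the data, 163. Leaving out 1 library gave 52 (without control 3) to 197 (without control 2). Signs turned for Ntf3 with limma-voom (0.112), for Ntrk2 when 1 library was left out (-0.111 to 0.0241), and for the Ntf3 over Bdnf ratio likewise (-0.195 to 0.224). Esrrg stood at 0.566 with limma on log2(FPKM + 1) and 0.609 on log2(FPKM + 0.1), at adjusted p of 0.0504 and 0.0501, and at 0.538 to 0.695 with 1 library left out. The causes were not tested.

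Deviations of same-numbered libraries correlated at 0.0211 to 0.179, and 3 of 5 numbers matched best with themselves. This does not settle whether the replicate numbers pair the libraries. With the replicate number as a block, 101 genes and 0 members were called; Esrrg was 0.611 and Pcsk1 1.18, and both calls were lost (adjusted p 0.0562 and 0.0719). The length offset kept the Esrrg call (adjusted p 0.0132); with the block it gave 163 calls, and the calls of Esrrg (0.583, adjusted p 0.0538) and Pcsk1 (1.16, adjusted p 0.0581) were lost.

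Limits: counts of 34 to 317 per library for the 3 ligands leave wide intervals, and isoforms were not separated.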

Other observations

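The other marker lists were read as summed CPM, with controls first. Erythroid genes spanned 714.1 to 2968 and 444.3 to 1296, with 7 of 7 tested genes on the lower side under the cKO label and 0 called. Genes of brain oligodendrocyte lineage and astrocytes spanned 546.5 to 743.0 and 644.3 to 833.1. Of these 10 genes, 6 were on the lower and 4 on the higher side, with log2 differences from -2.75 to 0.357. Olig1, Olig2 and Aqp4 were called lower by edgeR, where 0.546% of all tested genes were. Macrophage genes spanned 221.5 to 272.4 and 248.2 to 314.3, melanocyte genes 285.4 to 363.5 and 322.1 to 374.2, and mesenchymal genes 4061 to 5532 and 4550 to 5261, each with 0 calls. Skeletal muscle genes summed to at most 5.601, and endothelial genes had a median log2 difference of 0.08, both with 0 calls.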
